A study of Mus musculus with 7 samples.

Results

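A set of 10 genes that mark or drive the differentiation of the intestinal epithelium were followed in the small intestine of mice under dietary cystine restriction. They are the simple epithelial keratins Krt8, Krt18, Krt19 and Krt20, the brush border protein gene Vil1, and the transcription factor genes Klf4, Klf5, Cdx1, Cdx2 and Hnf4a. The genes were chosen by name, as members of these families that are known in enterocytes, and all 10 were found among the 38293 genes of the count table. They and the gene lists set beside them were chosen with earlier results of these data known. RNA was sequenced from 4 male C57BL/6NRJ mice on the normal cystine diet (normal cys) and from 3 on the low cystine diet (low cys), 1 library per mouse. Both groups were 8 weeks old, ate the control high-fat diet in an acclimatization period and then their own high-fat diet for 2 weeks. In the low cys diet, alanine took the place of the added cystine. The tissue was scraped from the end of the small intestine, so that it held epithelium with lamina propria.

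Keratins are obligate heteropolymers, in which a type II chain pairs with a type I chain to build the filaments under the apical and lateral membrane of epithelial cells. In simple epithelia Krt8 is the main type II chain, with Krt18, Krt19 and Krt20 as its type I partners, and Krt20 is restricted to differentiated cells toward the villus tip. Villin, the product of Vil1, bundles and severs the actin filaments of the microvilli. Cdx1 and Cdx2 are caudal-type homeobox factors that hold intestinal identity, Hnf4a is a nuclear receptor active in enterocytes along the villus, and the Krüppel-like factors Klf4 and Klf5 are known for opposite places, Klf4 in differentiated cells that have left the cell cycle and Klf5 in dividing crypt cells.

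The promoters of Krt20 and Vil1 are shown first, because these were the 2 genes whose low cys libraries all lay below the normal cys libraries. The same held for 3.51% of all genes tested. Among genes at least as abundant as Klf5, the least abundant of the 10, it held for 10.5%. The promoter of Krt8 is set beside those of Krt20 and Vil1, as the most abundant of the keratins, whose groups overlapped. Each sequence is the 250 bases 5′ of the RefSeq start site in GRCm38.p6, on the gene's strand, with letters of the searched motifs in capitals. The windows are chr11:99438154-99438403 on the minus strand for Krt20, chr1:74409134-74409383 on the plus strand for Vil1 and chr15:102004343-102004592 on the minus strand for Krt8.
Krt20: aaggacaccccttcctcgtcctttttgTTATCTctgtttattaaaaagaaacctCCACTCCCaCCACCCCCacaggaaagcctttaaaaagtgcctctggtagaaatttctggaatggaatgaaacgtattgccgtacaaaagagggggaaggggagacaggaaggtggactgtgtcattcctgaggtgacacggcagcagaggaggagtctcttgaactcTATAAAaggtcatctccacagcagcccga
Vil1: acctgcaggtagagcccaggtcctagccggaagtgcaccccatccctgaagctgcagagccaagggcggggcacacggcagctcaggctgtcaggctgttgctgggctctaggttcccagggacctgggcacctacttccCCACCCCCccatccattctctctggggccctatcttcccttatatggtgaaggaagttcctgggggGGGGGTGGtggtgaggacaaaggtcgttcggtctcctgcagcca
Krt8: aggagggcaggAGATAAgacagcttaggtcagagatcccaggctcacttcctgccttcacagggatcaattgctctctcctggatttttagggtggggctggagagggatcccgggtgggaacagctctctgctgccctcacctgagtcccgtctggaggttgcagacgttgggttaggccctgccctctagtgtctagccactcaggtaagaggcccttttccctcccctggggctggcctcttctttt

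The searched letters were CCACNCCC for KLF factors, TTTATG or TTTACG for CDX factors, CAAAGTNCA for HNF4, AGATAA for GATA factors and TATAAA for the TATA box, on both strands. In Krt20 the capitals mark a GATA motif on the opposite strand, 2 adjacent KLF motifs from 196 to 180 bases before the start, and a TATA box that begins 29 bases before it. Vil1 held 2 KLF motifs and no TATA box, and Krt8 held a GATA motif alone. RefSeq windows were at hand for 7 of the 10 genes, and Krt19, Klf5 and Cdx1 were without one. Of these 7, the KLF letters were found in 4 genes, Krt20, Vil1, Krt18 and Cdx2, while 15.9% of all 32851 promoters of this length held them. The GATA letters were found in 3 genes, Krt20, Krt8 and Hnf4a, against 9.99% of all promoters. The CDX and HNF4 letters occurred in none of the windows, and in 13.1% and 1.19% of all promoters. A match here is a description of the sequence and not a binding site.

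In the GRCm38 annotation the type I genes Krt19 (chr11:100140810-100148665, minus strand) and Krt20 (chr11:99428403-99438150, minus strand) lie on the same chromosome, while Krt18 (chr15:102028216-102032026, plus strand) stands beside the type II gene Krt8 (chr15:101996711-102004342, minus strand). Vil1 is at chr1:74409376-74435559 and Hnf4a at chr2:163506808-163572910, both on the plus strand. Klf4 is at chr4:55527143-55532466 and Cdx2 at chr5:147300805-147307270 on the minus strand, Klf5 at chr14:99298691-99313405 on the plus strand, and Cdx1 on chromosome 18. Counts were taken over the exons of each gene. Some genes overlap an annotated neighbour on the opposite strand, Vil1 with Usp37, Hnf4a with the antisense transcript Hnf4aos and Krt8 with the noncoding Gm36026. The libraries were stranded, but whether counting used the strand is not given in the sources used here. Of the 50-base stretches in the Krt8 transcripts 29.7% also occur in another gene, most of them in the processed pseudogene Krt8-ps, so the Krt8 count depends on how shared reads were treated. In the other 9 genes this share was at most 0.72%.

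Depth did not limit any of the 10 genes. The libraries held 14888760 to 22412703 counts, and the lowest count of any of the 10 genes in any library was 1719. Together they took 1.18% to 1.50% of all counts. Levels are given as CPM, counts scaled to a common library total, after TMM scaling, which sets the libraries to a common level by the bulk of the genes. The defining epithelial markers Epcam, Cdh1, Cldn3 and Cldn7 were all present, at a summed 4531 to 5641 CPM in normal cys and 4128 to 4607 CPM in low cys. Markers of some other cells in the scrapings differed between the groups, while those of most others overlapped. The 6 stroma markers summed to 4.11 to 8.93 CPM in normal cys and 11.8 to 18.6 CPM in low cys, the 4 endothelium markers to 5.78 to 7.89 and 8.31 to 11.8 CPM, and the 6 B and plasma cell markers to 182 to 647 and 792 to 1195 CPM, all without overlap. As single genes, 2 of the 5 stroma markers tested, 2 of the 6 B and plasma cell markers and none of the endothelium markers had an unadjusted p under 0.05 in edgeR. Over all genes 5.49% did, and 3.32% were higher in low cys without overlap. The 6 smooth muscle markers overlapped in sum, at 2.34 to 12.1 and 5.63 to 38.2 CPM. As single genes, 2 of these 6 had an unadjusted p under 0.05 in edgeR, and their median log2 fold change was 1.56. Sums also overlapped for T cells, myeloid cells, nerve and glia, mesothelium, goblet, Paneth, enteroendocrine and tuft cells. The 4 pancreatic acinar markers were lower in low cys without overlap, at 4.49 to 5.41 and 3.51 to 4.25 CPM. The 4 keratinocyte markers Krt5, Krt14, Krt1 and Krt10 summed to 1.86 to 3.36 and 2.33 to 2.51 CPM with overlap, and of these Krt5 had no count in any library. The part of these markers in the differences given here was not tested. In such bulk tissue fewer cells of a type and less RNA per cell cannot be told apart.

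Per kilobase of exon, which allows levels to be compared between genes, Krt8 was the most abundant of the 10, with a mean level of 1977 CPM per kilobase over the 7 libraries. Krt20 followed at 1312, Vil1 at 933 and Krt19 at 732 CPM per kilobase. Of the transcription factors Hnf4a stood highest, at 216 CPM per kilobase, then Klf4 at 121, Cdx2 at 108, Cdx1 at 86.9 and Klf5 at 68.0. Krt18 was the lowest of the keratins at 129 CPM per kilobase, in the range of the transcription factors. Some neighbours in this order overlapped from mouse to mouse. Krt18 ranged from 111 to 162 and Klf4 from 70.6 to 152 CPM per kilobase, and Cdx1 ranged from 71.2 to 107 with Klf5 from 52.8 to 84.2.

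The diet comparison asked whether these genes differed in level between low cys and normal cys mice. None of them passed the test. In edgeR's quasi-likelihood test over 14869 genes, the adjusted p-values of the 10 genes ran from 0.794 to 0.980 after Benjamini-Hochberg adjustment, and no gene of the table was below 0.05 (0% of the genes tested, smallest adjusted p 0.291). At an unadjusted p under 0.05 there was 1 of the 10 genes, Krt20, where 5.49% of all genes tested were below it. DESeq2 gave 3 of the 10 at this level, Krt20, Vil1 and Klf4, all lower in low cys. Over all genes 6.33% were at this level in DESeq2 (3.62% lower and 2.71% higher). The share among genes of like abundance was not computed for it. After adjustment DESeq2 gave none of the 10, against 16 genes or 0.108% of those it tested. All low cys libraries lay below all normal cys libraries in 2 of the 10 genes, Krt20 and Vil1, against 3.51% of all genes, and above them in none, against 3.32% (6.83% in either direction). The estimates were negative for 7 genes and positive for 3, with a median log2 fold change of -0.14. Over all genes 48.8% of the estimates were negative, and the median was 0.0072.

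**Figure D1:**
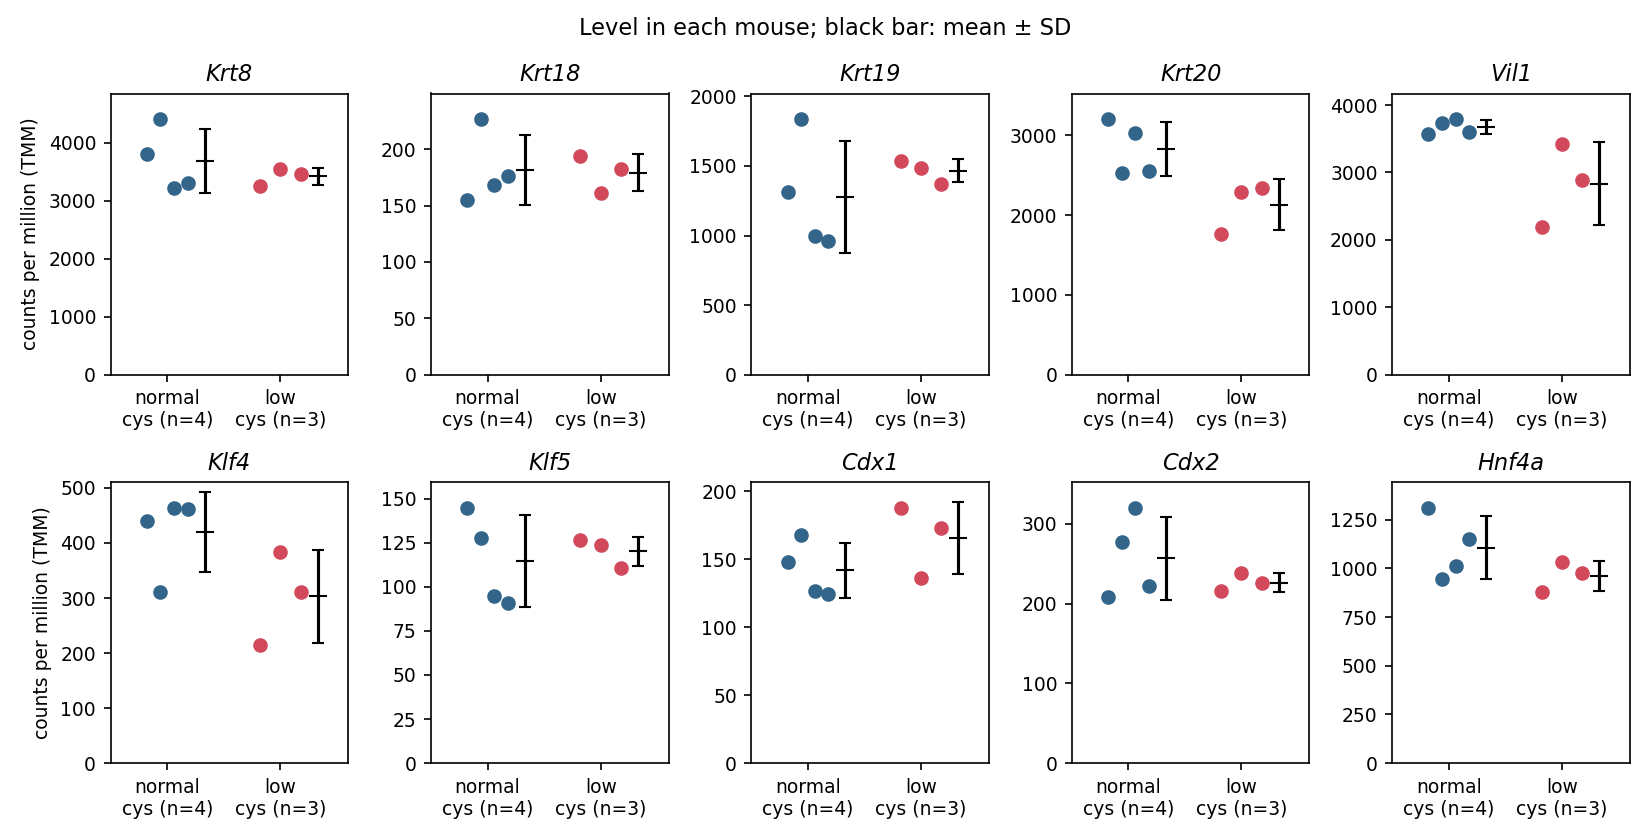
CPM after TMM scaling (y axis, from 0) of each of the 10 genes in the 4 normal cys mice (blue) and the 3 low cys mice (red), with the mean and SD as a black bar. Points stand from left to right in the order mouse 1 to mouse 4 or 3, and the groups are apart only in Krt20 and Vil1.

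Among the keratins, Krt20 had the only estimate with an unadjusted p under 0.05. Its level was 3204, 2525, 3023 and 2550.2 CPM in normal cys mice 1 to 4 and 1765, 2288 and 2338 CPM in low cys mice 1 to 3. All low cys mice were below the lowest normal cys mouse, and low cys mouse 1 was the lowest of all, well under the other two. The means were 2825 ± 341 CPM (SD, n = 4) and 2130.5 ± 317 CPM (SD, n = 3), which is a log2 fold change of -0.41 (SE 0.18, 95% interval -0.81 to -0.0015). The edgeR adjusted p was 0.794, and the exact permutation test of the difference in mean log2 CPM gave p = 0.0286, two-sided, the smallest value that the 35 ways of placing 3 low cys labels on the libraries allow. Without low cys mouse 1 the log2 fold change was -0.28, and with scaling by total count alone it was -0.27. The exact permutation test gave p = 0.0857 by total count.

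Krt20 is also the gene that the study used as its enterocyte marker in quantitative PCR, so the place of that assay in the gene is given. In the small intestine the study reported no effect on the markers outside stem and proliferative cells, a group that held Krt20. That assay covered more mice per group than were sequenced and was normalized to cyclophilin. It is therefore not the same measure as the scaled counts given here. The amplicon spans 90 bases of the Krt20-201 transcript in exons 5 and 6, coding sequence at chr11:99430958-99431942 on the minus strand. The forward primer had 1 mismatch to the transcript, C8T, where the position is counted from 1 at its 5′ end, the first letter is the base of the primer and the last that of the transcript (in capitals here). The reverse primer matched exactly. Whether the mismatch has an effect on the assay was not tested.
Forward primer: tcgaggtccaagtcacggag
Krt20 transcript: tcgaggtTcaagtcacggag
Reverse primer: gctccagagactctttcatgct

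Krt8, the type II chain on which the filaments depend, stood at 3801, 4407, 3217 and 3301 CPM in normal cys and at 3261, 3541 and 3455 CPM in low cys. The low cys mice lay inside the range of the normal cys mice, of which mouse 2 was the highest. The log2 fold change was -0.11 (SE 0.174, edgeR adjusted p = 0.874, exact permutation p = 0.571), with a 95% interval of -0.50 to 0.29.

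Krt18, its usual partner in single-layered epithelia, was at 155, 227, 168 and 176 CPM in normal cys and 194, 161 and 182 CPM in low cys. The groups overlapped throughout, and the log2 fold change of -0.020 (SE 0.157, 95% interval -0.37 to 0.33, edgeR adjusted p = 0.980, exact permutation p = 0.971) was the smallest in size of the 10 genes. Both Krt8 and Krt18 turned positive when libraries were scaled by total count, at 0.027 and 0.12.

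Krt19, a type I keratin found in crypt as well as villus cells, was at 1313, 1837, 997 and 964 CPM in normal cys and 1536, 1489 and 1373 CPM in low cys. The normal cys mice were widely spread, from the highest level of all in mouse 2 to the lowest in mice 3 and 4, with the low cys mice between them. Its estimate was positive, at 0.20 on the log2 scale (SE 0.235, 95% interval -0.33 to 0.73, edgeR adjusted p = 0.839, exact permutation p = 0.343).

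Because keratins pair, the balance of the chains was compared within each library, where scaling between libraries plays no part. Per kilobase, the ratio of Krt8 to the sum of Krt18, Krt19 and Krt20 was 0.892 ± 0.0848 (SD, n = 4) in normal cys and 0.937 ± 0.0209 (SD, n = 3) in low cys, which did not differ beyond the spread between mice (exact permutation p = 0.429). The level of this ratio, below or above 1, depends on how reads shared between Krt8 and Krt8-ps were counted, which is not given. The share of Krt20 in the 3 type I chains was 67.0%, 53.2%, 70.4% and 67.2% in the normal cys mice and 48.7%, 56.4% and 58.2% in the low cys mice. Only normal cys mouse 2 lay among the low cys mice. The means were 64.5% ± 7.67 (SD) and 54.4% ± 5.08 (SD), with an exact permutation p = 0.114 and 0.400 after adjustment over the 7 ratios examined. The share of Krt19 was 24.1% to 40.2% in normal cys and 35.5% to 44.0% in low cys, and that of Krt18 4.47% to 6.58% and 5.47% to 7.37%. The ratio of Krt18 to Krt19 was 0.197 ± 0.0427 and 0.162 ± 0.0167 (exact permutation p = 0.314, adjusted 0.440).

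**Figure D2:**
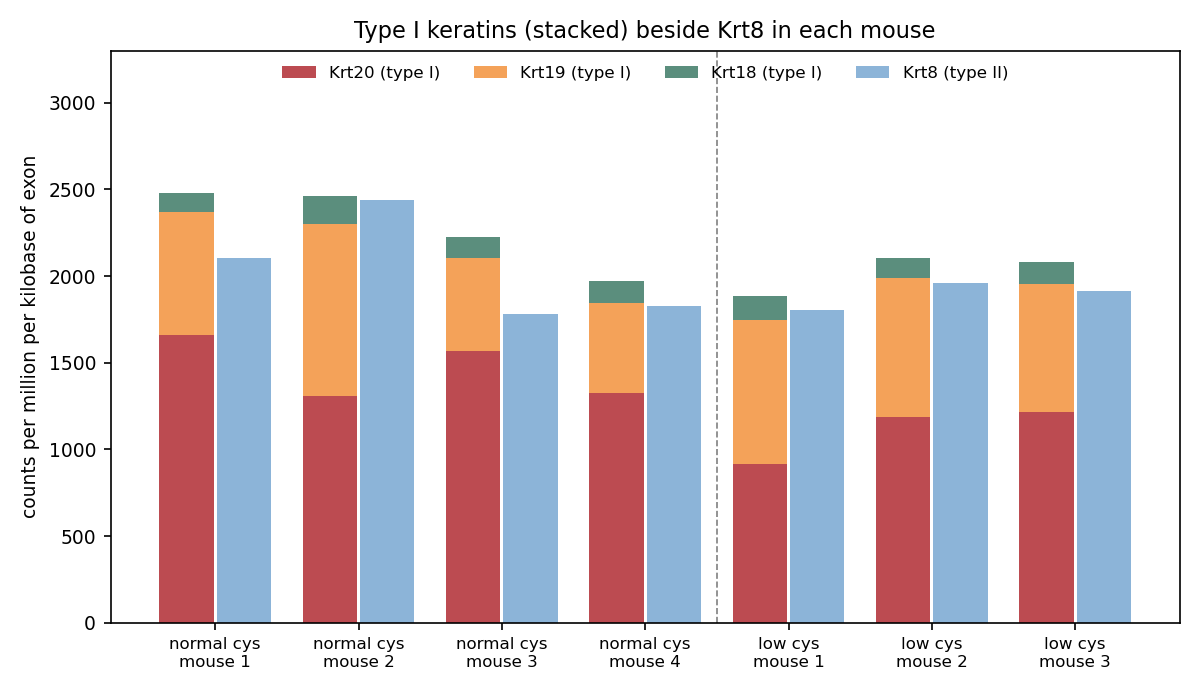
Level per kilobase of exon (y axis, CPM per kilobase) of Krt20, Krt19 and Krt18 stacked, beside Krt8, in each of the 7 mice. The Krt8 bar is lower than the stack in each mouse, but its height depends on how reads shared with other genes were counted. Krt20 makes up 53.2% to 70.4% of the stack in normal cys and 48.7% to 58.2% in low cys.

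The table named 47 other keratin genes, of which 19 had no count in any library and 7 were abundant enough to be tested. Of these 7, 4 had negative and 3 positive estimates (median log2 fold change -0.12). Krt7, a type II keratin of glandular epithelia, was the highest of them, at 84.6 ± 18.8 CPM in normal cys and 106 ± 18.7 CPM in low cys. The type I keratin Krt23 had 9.87 ± 4.70 and 6.42 ± 1.28 CPM. Krt84, a hair keratin, had an unadjusted p under 0.05 in the positive direction, at 0.789 to 1.77 CPM in normal cys and 1.75 to 4.08 CPM in low cys, with a log2 fold change of 1.50 (SE 0.404) and an edgeR adjusted p = 0.794. In that direction 2.66% of all genes were below 0.05.

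Vil1 stood at 3567, 3735, 3792 and 3595 CPM in normal cys and at 2195, 3419 and 2883 CPM in low cys. The normal cys mice lay close together, and the low cys mice were spread out below them, mouse 2 just under the normal cys range and mouse 1 far from it. The means were 3672 ± 108 CPM (SD, n = 4) and 2832 ± 614 CPM (SD, n = 3), with a log2 fold change of -0.37 (SE 0.186, 95% interval -0.79 to 0.046). The edgeR adjusted p was 0.794 and the exact permutation p = 0.0286, again the smallest that the design allows. Without low cys mouse 1 the log2 fold change was -0.21, and by total count -0.24, where the exact permutation test gave p = 0.114. The ratio of Vil1 to Krt8 was 0.515 ± 0.0755 in normal cys and 0.419 ± 0.0745 in low cys (exact permutation p = 0.171, adjusted 0.400).

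The other genes of the microvillus were read beside Vil1. Of 28 genes for the actin bundle, its motors and the links between microvilli, 24 had negative and 4 positive estimates, with a median log2 fold change of -0.30. Negative estimates were found for 48.8% of all genes and for 76.2% of those at least as abundant as Klf5. An unadjusted p under 0.05 was found for 5 of the 28, all lower in low cys, and an adjusted p under 0.05 for none. In that direction 2.83% of all genes and 7.84% of the abundant ones had an unadjusted p under 0.05. Without low cys mouse 1 there were none of the 28 at an unadjusted p under 0.05, and by total count 2, and the median was -0.19 and -0.16 in these settings. Eps8l3, an Eps8-like regulator of actin, had 577 ± 93.7 CPM in normal cys and 409 ± 31.4 CPM in low cys, with a log2 fold change of -0.50 and groups apart. Ezr, whose product ezrin ties the actin core to the membrane, had 1802 ± 130.3 and 1364 ± 154 CPM, and Cdhr2, the protocadherin of the links between microvillus tips, 2192 ± 244 and 1632 ± 264 CPM, both apart between the groups. Vill, a relative of villin, was nearly absent, at 1.72 ± 0.909 and 0.618 ± 0.347 CPM. The most abundant of the list were Actb, cytoplasmic actin, at 5018 ± 1209 and 3951 ± 484 CPM, and Myo1a, the brush border myosin, at 2680.0 ± 259.5 and 2078 ± 333 CPM, and both overlapped between the groups. The genes that tie keratin filaments to desmosomes gave 9 negative and 2 positive estimates of 11 tested (median -0.15), with none at an unadjusted p under 0.05. Plec, for the linker plectin, was at 922 ± 91.9 and 705 ± 135 CPM without overlap, and Dsp, for desmoplakin, at 618 ± 184 and 524 ± 31.8 CPM.

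**Figure D3:**
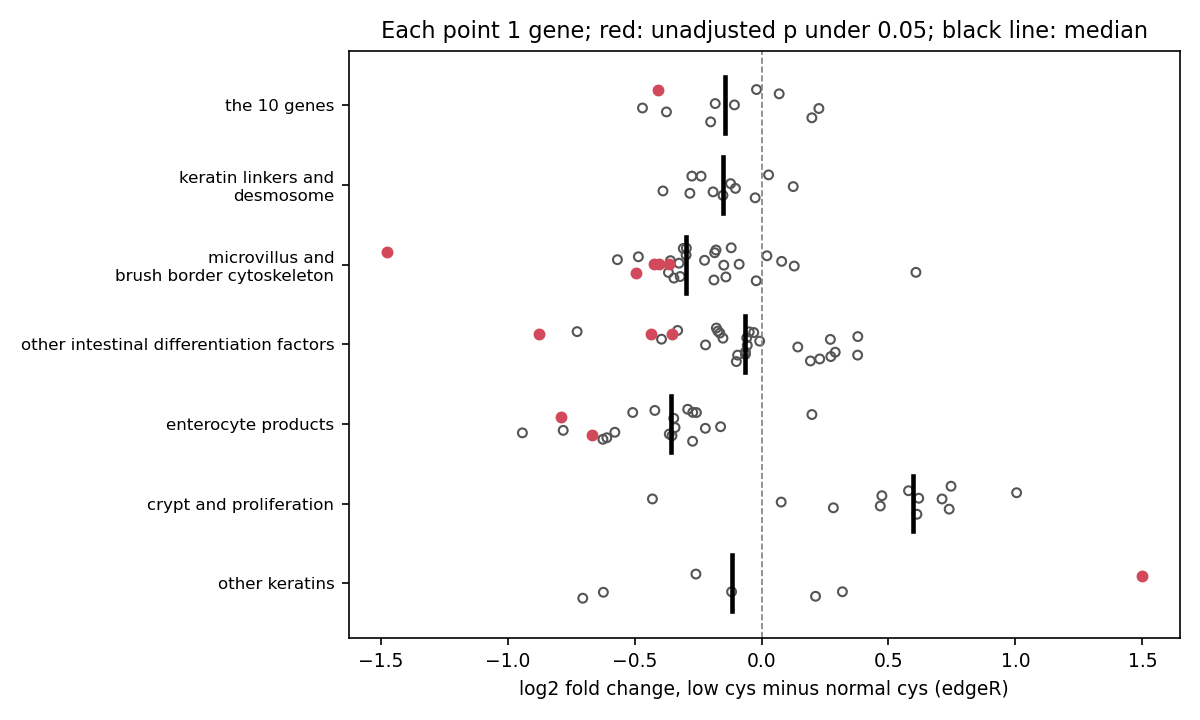
Log2 fold change of low cys against normal cys (x axis) of every tested gene in the 10 genes and 6 lists (y axis), with points shifted up or down only for visibility. Red points have an unadjusted p under 0.05 and black lines are medians, which lie at -0.14 for the 10 genes, -0.30 for the microvillus genes and 0.60 for the crypt genes.

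Klf4, the Krüppel-like factor of differentiated cells, had the largest estimate in size of the 10 genes. It was at 441, 311, 464 and 461 CPM in normal cys and at 215, 384 and 310.2 CPM in low cys. Normal cys mouse 2 lay with the low cys mice, apart from the other 3 of its group, and low cys mouse 1 was the lowest of all. The means were 419 ± 72.9 CPM (SD, n = 4) and 303 ± 84.4 CPM (SD, n = 3), a log2 fold change of -0.47 (SE 0.223, 95% interval -0.97 to 0.035). It did not pass the test, with an edgeR adjusted p = 0.794 and an exact permutation p = 0.114. The log2 fold change was -0.26 without low cys mouse 1, -0.65 without low cys mouse 2, -0.57 without normal cys mouse 2 and -0.33 by total count.

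Klf5, the Krüppel-like factor of dividing crypt cells, was at 145, 127, 95 and 90.9 CPM in normal cys and 126, 123 and 111 CPM in low cys. The low cys mice lay inside the normal cys range, in which mice 1 and 2 stood above mice 3 and 4. Its log2 fold change was 0.069 (SE 0.179, 95% interval -0.34 to 0.47, edgeR adjusted p = 0.921, exact permutation p = 0.657). The ratio of Klf4 to Klf5 was 2.18 ± 0.744 (SD, n = 4) in normal cys and 1.43 ± 0.416 (SD, n = 3) in low cys, with overlap and an exact permutation p = 0.257, adjusted 0.440.

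Cdx1 was at 148, 168, 126 and 125 CPM in normal cys and at 188, 136 and 173 CPM in low cys. Low cys mice 1 and 3 were the highest of all mice and low cys mouse 2 lay inside the normal cys range. The estimate was a log2 fold change of 0.23 (SE 0.161, 95% interval -0.14 to 0.59, edgeR adjusted p = 0.798, exact permutation p = 0.229).

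Its paralogue Cdx2, the homeobox factor that sets intestinal fate, was at 208, 278, 320.4 and 222 CPM in normal cys and 215, 238 and 226 CPM in low cys. The low cys mice fell close together within the wider normal cys range. The log2 fold change was -0.18 (SE 0.17, 95% interval -0.57 to 0.20, edgeR adjusted p = 0.814, exact permutation p = 0.429). The ratio of Cdx1 to Cdx2 per kilobase was 0.734 ± 0.170 and 0.952 ± 0.196, with overlap (exact permutation p = 0.171, adjusted 0.400).

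Hnf4a was at 1312, 945, 1014 and 1151 CPM in normal cys and 877, 1031 and 979 CPM in low cys. Low cys mouse 1 was the lowest and normal cys mouse 1 the highest, and the groups overlapped in between. A log2 fold change of -0.20 (SE 0.163, 95% interval -0.57 to 0.17, edgeR adjusted p = 0.804, exact permutation p = 0.257) was estimated. The ratio of Hnf4a to Cdx2 per kilobase was alike in its mean, 2.12 ± 0.701 in normal cys and 1.99 ± 0.0697 in low cys (exact permutation p = 0.914), with a spread in normal cys that was far wider than in low cys.

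**Figure D4:**
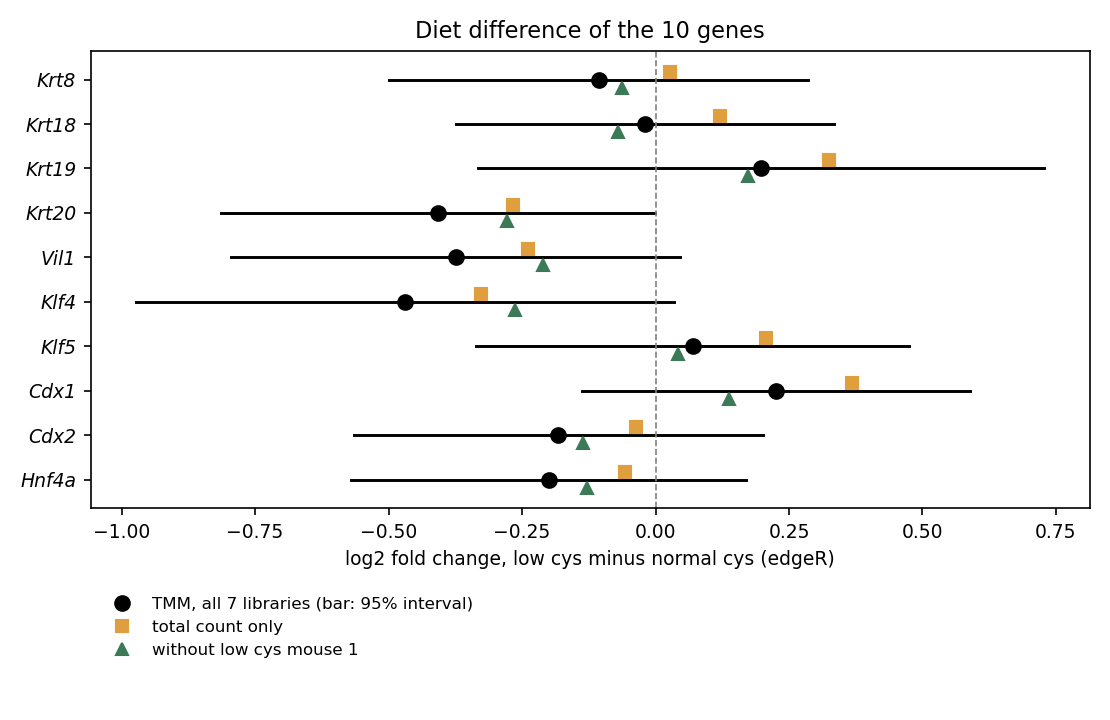
Log2 fold change of low cys against normal cys (x axis) of the 10 genes (y axis) by edgeR, with the 95% interval of the estimate over all 7 libraries as a bar. Squares give the estimate by total count and triangles that without low cys mouse 1. For Krt20, Vil1 and Klf4 both lie closer to 0 than the main estimate.

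Of 28 other transcription factors and regulators of intestinal differentiation, 20 had negative and 8 positive estimates, with a median log2 fold change of -0.064. Negative estimates were found for 48.8% of all genes and for 76.2% of those at least as abundant as Klf5. An unadjusted p under 0.05 was found for 3 of the 28, all lower in low cys, and for none of the 28 without low cys mouse 1. In that direction 2.83% of all genes and 7.84% of the abundant ones were below it. By total count the median turned to 0.082. Gata5 and Gata6, zinc finger factors of the gut endoderm, were apart between the groups, at 163 ± 16.9 against 120.4 ± 20.6 CPM and at 53.3 ± 5.13 against 41.8 ± 4.68 CPM. Creb3l3, a membrane-bound factor of lipid metabolism, was at 455 ± 172 and 248 ± 98.1 CPM with overlap. The most abundant of the list, the transcription factor Maf and the vitamin D receptor gene Vdr, were at 615 ± 161 against 554 ± 97.6 CPM and at 448 ± 89.7 against 431 ± 45.6 CPM.

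Genes for the products of mature enterocytes gave 19 negative estimates of 20, with a median log2 fold change of -0.36, where 48.8% of all genes and 76.2% of those at least as abundant as Klf5 had negative estimates. The median was -0.20 without low cys mouse 1 and -0.21 by total count. An unadjusted p under 0.05 was found for 2, both lower in low cys, against 2.83% of all genes and 7.84% of the abundant ones in that direction, and for none without low cys mouse 1. These were Apoa1, for the main protein of high-density lipoprotein, at 9406 ± 2734 and 5438 ± 1528 CPM, and Treh, for the brush border enzyme trehalase, at 206 ± 66.1 and 130 ± 39.1 CPM. The fatty acid binding protein gene Fabp2 and the aminopeptidase gene Anpep, the highest of the list, were at 14495 ± 5595 against 7545 ± 3970 CPM and 11470 ± 1067 against 9502 ± 1502 CPM. Genes of the crypt and of proliferation had the opposite sign in 11 of 12, with a median of 0.60 and none at an unadjusted p under 0.05. Part of this list was of low level, where estimates over the whole table were mostly positive. With all genes in 10 equal bins by average level, 32.3% to 40.3% of estimates were negative in the lowest 5 bins. The medians of those bins were 0.059 to 0.17. The part of this trend in the crypt list was not tested. The median of the crypt list was 0.96 without normal cys mouse 1, 0.36 without normal cys mouse 4 and 0.39 without low cys mouse 1. The proliferation marker Mki67 was at 67.0 ± 36.7 CPM in normal cys and 102 ± 27.8 CPM in low cys, and the Wnt target Axin2, the exception in sign, at 91.7 ± 22.2 and 68.1 ± 14.7 CPM.

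The size of these estimates was set against that of other genes of like abundance, since the 10 genes are among the most abundant of the tissue. When the 14869 genes were divided into 10 equal bins by average level, 9 of the 10 genes fell in the highest bin and Klf5 in the next. The median log2 fold change of the highest bin was -0.16, with 76.5% of its genes below 0, and that of the lowest bin was 0.15. Over the 1608 genes at least as abundant as Klf5, the least abundant of the 10, 76.2% of estimates were below 0, groups did not overlap with low cys below in 10.5%, and the unadjusted p was under 0.05 in that direction in 7.84%. The shares of the 10 genes were 7 negative, 2 apart and 1 below 0.05. Scaling by total count moved the median of all genes by 0.145, to 0.15, and that of the highest bin to -0.013. The estimates of Krt20 and Vil1 under that scaling were -0.27 and -0.24. Such a change of scaling shifts all genes by about the same amount, so this shift is not particular to these genes.

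**Figure D5:**
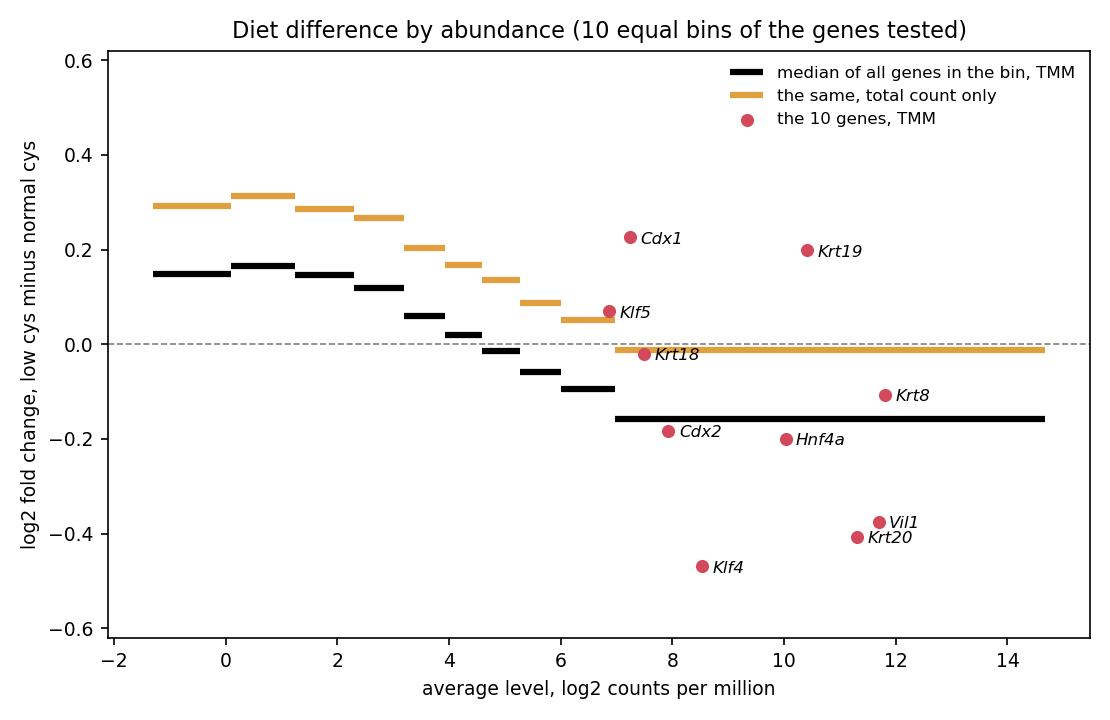
Median log2 fold change of low cys against normal cys (y axis) of all genes in each of 10 equal bins of abundance, drawn over the range of average log2 CPM that the bin covers (x axis), under TMM (black) and total count scaling (orange). The 10 genes are red points under TMM, and Krt20, Vil1 and Klf4 lie furthest below the line of the highest bin, at -0.41, -0.37 and -0.47.

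The 10 genes were also expressed relative to the summed level of the epithelial markers Epcam, Cdh1, Cldn3 and Cldn7 in the same library, a scale added after the other values were seen. On it Krt20 was 0.653, 0.557, 0.549 and 0.452 times the marker sum in normal cys and 0.428, 0.523 and 0.508 times in low cys. Low cys mice 2 and 3 then lay among the normal cys mice, and only low cys mouse 1 was below them all. The difference in mean log2 level was -0.18 (exact permutation p = 0.286). For Vil1 it was -0.17 (exact permutation p = 0.343) and for Klf4 -0.26 (exact permutation p = 0.286), all with overlap. The groups overlapped for each of the 10 genes on this scale. The marker sum is common to all genes of a library, so it shifts the difference in mean log2 level of all 10 genes alike. These values are therefore not 10 separate checks. The median log2 fold change of the markers themselves was -0.21.

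Which of the genes varied together from mouse to mouse was examined over the 7 libraries for all 45 pairs. None of the correlations passed adjustment over the pairs (smallest adjusted permutation p = 0.134), and 7 had an unadjusted p under 0.05. The strongest was negative, between Klf4 and Cdx1, with Pearson's r = -0.92 (exact permutation p = 0.00298) and Spearman's rho = -0.93 (exact permutation p = 0.00675), and r = -0.85 without the 2 libraries farthest from the median of Klf4. Krt20 went with Vil1 (r = 0.84, exact permutation p = 0.0133, rho = 0.71, exact permutation p = 0.0881) and with Klf4 (r = 0.86, exact permutation p = 0.0133, rho = 0.79, exact permutation p = 0.048), and r was 0.66 and 0.60 without the 2 farthest libraries. Scaled by total count, both correlations were r = 0.71 (exact permutation p = 0.0911 and 0.0825). Since the low cys mice were lower in these genes, the pooled values also hold the difference between the groups, and within the 4 normal cys mice r was -0.11 for Krt20 with Vil1 and 0.53 for Krt20 with Klf4. The correlation of Vil1 with Klf4 rested on 2 libraries, low cys mice 1 and 3: it was 0.86 with them (exact permutation p = 0.0218, rho = 0.79, exact permutation p = 0.048) and -0.034 without, and by total count 0.71 (exact permutation p = 0.075). Krt8 and Krt18, which pair in the filament, had r = 0.49 (exact permutation p = 0.273) and rho = 0.0 (exact permutation p = 1.0), and r = -0.40 without 2 libraries.

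The genes of the whole table that were most like 4 of the 10 in their pattern over the 7 libraries were sought by Pearson's r of log2 CPM. For Krt8 these were the proteasome subunit gene Psmb3, the gamma-secretase subunit gene Aph1a and Gm5580, with r of 0.97, 0.96 and 0.96. For Krt20 they were the zinc finger gene Zfp703, the phosphatidylcholine synthesis gene Pcyt1a and the endosomal GTPase gene Rab5c, all with r of 0.98. For Klf4 they were the plexin gene Plxna2, Nhsl1 and Armc7, with r of 0.99, 0.99 and 0.99, and for Hnf4a the glypican gene Gpc4, Plekhb2 and Trim40, each with r of 0.98. These were the highest of 14869 genes over 7 libraries, given as a description without a test.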

How the data were processed

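The data are RNA-seq counts of 7 small intestine libraries. The authors deposited raw counts per gene. Per the study's methods and the submitters' processing notes, the libraries were stranded and polyA-selected, Trim Galore 0.6.5 trimmed the reads, SortMeRNA took out ribosomal RNA, STAR did the alignment (GRCm38) and featureCounts the counting on Ensembl exons. Whether counting used the strand, and how reads with several matches were counted, is not given in the sources used here. Reads shared with a near copy or an antisense gene can therefore be gained or lost, which touches Krt8 most.

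From these counts, genes were kept by filterByExpr of edgeR 4.0.16 (minimum count 10, minimum total 15), scaled by TMM and tested in R 4.3.3 with the robust quasi-likelihood F-test, low cys against normal cys without covariates, with Benjamini-Hochberg adjustment over the 14869 genes kept. The study's own tool, DESeq2 (here version 1.42.0), was an alternative, as were limma-voom (limma 3.58.1), DESeq2 size factors, upper quartile and total count scaling, other filters, a fit without the robust option and leaving out each library. The SE is that of the log2 fold change, and log2 CPM used a prior count of 2. Single levels and within-library ratios were tested by two-sided exact permutation over the 35 ways of placing the diet labels, which cannot give a p below 0.0286. The scripts were tested on simulated data. The biological coefficient of variation was 25.5%. The p-values of the diet comparison set the difference between the diets against the spread between mice. No pair of libraries was a duplicate.

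Groups came from the sample labels, and mice are numbered in the order of their listing. Text names all 10 genes, and of each other list those with an adjusted p under 0.05, otherwise up to 4 with the smallest unadjusted p under 0.05, and the 2 with the highest mean level. The members and lists were chosen with earlier results of these data known, and the scale relative to epithelial markers was added later. Of the listed genes, 6 were matched by gene ID to an older name in the table. Sequences are from RefSeq (GRCm38.p6) and the study's primer list, and overlaps from GENCODE M21.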

Additional observations from a re-analysis of the deposited data

Results flagged for a closer look

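A single value was flagged, the log2 CPM of Klf4 in normal cys mouse 2. Its gap to the nearest of the other 3 normal cys mice was 0.870 of the whole range of the group, above the 95% critical value of Dixon's test for 4 libraries. The level there was 311 CPM, where the other normal cys mice had 441, 464 and 461 CPM. In all, 17 values were examined this way, the levels of the 10 genes and the 7 ratios in normal cys, and chance alone gives 0.85 flags. The low cys group, with 3 mice, was not examined.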

How the results depend on the processing

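Under every alternative the adjusted p of each of the 10 genes stayed above 0.05, the lowest being 0.486 for Vil1. The number with an unadjusted p under 0.05, 1 in the report, was 3 by DESeq2, 2 without a filter, and 0 with at least 10 counts in every library, without the robust option, by total count and by upper quartile factors, and ranged from 0 to 3 when a library was left out. Over all genes the adjusted count of 0 became 16 by DESeq2 and ranged from 0 to 1 without a library, and the 817 genes at an unadjusted p under 0.05 ranged from 258 (without low cys mouse 1) to 1763 (without normal cys mouse 1). The log2 fold changes of Krt20, Vil1, Klf4, Krt19, Cdx1, Cdx2 and Hnf4a kept their sign in each of the 15 alternatives. Krt8 turned to 0.027 by total count and ranged from -0.17 to 0.0077 (without normal cys mouse 2) when a library was left out. Krt18 turned to 0.12 by total count, 0.024 by upper quartile and 0.074 and 0.12 without low cys and normal cys mouse 2 (range -0.087 to 0.12). Klf5 turned to -0.018 and -0.027 without normal cys mice 3 and 4 (range -0.027 to 0.20). Differences of mean log2 CPM turned for Krt8 (0.049 by total count, 0.14 relative to epithelial markers), Krt18 (0.14 and 0.22 in the same settings, 0.10 without normal cys mouse 2, 0.065 without low cys mouse 2, range -0.080 to 0.10), Klf5 (-0.0072 without normal cys mouse 4, range up to 0.22), Cdx2 and Hnf4a (0.071 and 0.040 relative to epithelial markers). The exact permutation p of Krt20 and Vil1 was 0.0857 and 0.114 by total count, and without a library, where fewer arrangements allow no p below 0.05, 0.0667 to 0.133 and 0.0667 to 0.100. The log2 ratio of Hnf4a to Cdx2, -0.030, was 0.042 by medians and ranged from -0.18 to 0.15 without a library, with 0.15 and 0.057 without normal cys mice 1 and 4. Without the 2 farthest libraries, r changed sign for Krt8 with Krt18 (-0.40), Krt19 with Klf5 (-0.099), Vil1 with Klf4 (-0.034) and Vil1 with Cdx1 (0.12). The cause of these changes was not tested.

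List medians by total count were -0.013 for keratin linkers, -0.16 for microvillus genes, 0.082 for other differentiation factors and 0.019 for other keratins. Without a library they ranged from -0.20 to -0.085 for keratin linkers, -0.37 to -0.19 for microvillus genes, -0.13 to -0.022 for other differentiation factors (lowest without normal cys mouse 2, highest without normal cys mouse 4), -0.44 to -0.20 for enterocyte products, 0.36 to 0.96 for crypt genes and -0.12 to 0.11 for other keratins, which turned positive without normal cys mouse 2 (0.0048) and low cys mouse 2 (0.11). List counts at an unadjusted p under 0.05 by DESeq2 were 1 for keratin linkers, 9 for microvillus genes and 6 for enterocyte products, and by total count 2 for microvillus genes and 1 for enterocyte products. Those by DESeq2 were all lower in low cys, where 3.62% of all genes were below 0.05 in that direction. The share among genes of like abundance was not computed for DESeq2. In edgeR it was 7.84% among genes at least as abundant as Klf5, against 2.83% of all genes. By total count 1037 genes of the whole table had an unadjusted p under 0.05, against 817 in the main setting. Without a library the list counts ranged from 0 to 1 for keratin linkers, 0 to 10 for microvillus genes, 0 to 5 for other differentiation factors, 0 to 5 for enterocyte products, 0 to 7 for crypt genes and 1 to 3 for other keratins. The 10 and the 7 came without normal cys mouse 1, where the count over the whole table rose from 817 to 1763. No paired analysis was possible because the labels give the mice no numbers that are shared between the diets. Depth was ample, and the number of mice set the precision: the 95% intervals of the 10 genes were 0.71 to 1.06 log2 units wide.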
